A study of Homo sapiens with 19 samples.

Results

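The heat shock genes studied here were 10 genes that encode chaperones of the cytosol and the mitochondrion and the factor that switches many of them on: HSPA1A, HSPA1B, HSPA8, HSPH1, HSP90AA1, DNAJB1, HSPB1, HSPD1, HSPE1 and HSF1. They were chosen by name among the 20503 genes with a probe on the array, without a rule on measured values but with earlier results of these data known. Their RNA was measured in the KhES-3 line of human embryonic stem cells (hESCs) during the first 72 h of its differentiation into brown adipocytes (BAs), the heat-producing fat cells. The course had 19 time points with 1 array each, every 1 or 2 h at first and every 4 to 6 h from 16 h on, with no replicate and no array of undifferentiated cells used here. All samples had the same treatment, culture in a low-attachment dish in serum-free BA medium with IGF-II, BMP4, VEGFA, KITLG, FLT3LG and IL-6, so time was the only factor that varied by design. The labels put the stem cells on irradiated mouse embryonic fibroblasts, whereas the study's methods give a feeder-free culture.

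Chaperones bind unfolded proteins and help them to fold. HSP70 proteins do so with J-domain partners, which bring the substrate and start ATP hydrolysis, and with HSP110 proteins, which exchange the nucleotide, and clients such as kinases and receptors pass on to HSP90. HSF1 is held inactive in unstressed cells, and on heat, oxidative stress, heavy metals or misfolded protein it forms trimers that bind heat shock elements in the promoters of these genes, so that HSP70 serves as a classical readout of proteotoxic stress. In the mitochondrion, the HSPD1 and HSPE1 proteins form the chaperonin chamber in which imported proteins fold, and their genes lie head to head around 1 shared promoter region.

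The arrays were one-colour Agilent arrays on 3 slides, with the 6 arrays of 3 to 12 h on the first, the 8 arrays of 14 to 42 h on the second and the 5 arrays of 48 to 72 h on the third, which was scanned on a later day. Between 49.5 and 64.7% of the probes' spots on an array were well above background. Signals were scaled to a common 75th percentile of 871, and each gene is given by its brightest probe; a probe's brightness depends on its sequence, so only differences of the same probe were compared. The stem cell state was checked with 7 pluripotency genes, and all of them were well above background on all 19 arrays, POU5F1 at 250575 to 381747 and SOX2 at 19848 to 32368. Of the fibroblast genes, COL3A1 and LUM were well above background on 1 array each, POSTN on 2, DCN on 9 and PDGFRB on 17. COL1A1, COL1A2 and THY1 were on all 19, and THY1 had the widest range of these, 12280 to 33146. Of the 5 blood genes, PTPRC, SPI1, HBG1 and CD33 were well above background on all arrays and GATA1 was on none, and their summed signal ranged from 578 to 1209. The summed signal of the 8 fibroblast genes averaged 26668 at 48 and 54 h and 38202 at 60 to 72 h. Nearly all of it came from COL1A1, COL1A2 and THY1, so it does not measure a share of fibroblasts. The sum of the pluripotency genes averaged 561778 and 563621 in these windows, and that of the blood genes 879 and 846. The part of this in the results below was not tested.

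All 10 genes were well above background on all 19 arrays with the probe shown, and no spot was saturated. The scanner software gave the same error, 10.0%, for each of these signals, which is not a spread measured between arrays or samples. The genes had 17 probes in all, of which 16 were well above background on all arrays. HSPA1A was read from a probe printed 10 times per array, whose copies differed by an SD of 0.0351 to 0.0880 on the log2 scale. HSPA1A and HSPA1B are near-identical copies and the probes' own sequences were not used here, so the signals of the pair cannot be told apart with certainty.

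The promoters of these genes are shown because the binding site of HSF1 is a repeat of GAA and TTC units with a gap of 2 bases. In RefSeq promoter windows of 250 bases before the annotated start (GRCh38.p14), 3 forms were searched on both strands, of which the dimers GAANNTTC and TTCNNGAA each equal their own reverse complement, and the trimer GAANNTTCNNGAA, read as TTCNNGAANNTTC on the other strand, contains both dimers. Of all 35116 windows, 5.78% held the first dimer, 6.62% the second and 0.441% the trimer, and 11.6% held any of them. Of the 9 genes whose windows were searched, all but HSF1, 7 held any form and HSPA8, HSP90AA1 and HSPD1 held the trimer. A gene was counted if any of its windows held a form, whereas the shares above are of single windows. The 9 genes had 13 windows in all, and the matches lay in 1 window of each of the 7 genes. The windows of HSPH1 and HSPE1 held none of these letters, which says nothing about sites elsewhere. One window of each of these 7 genes is shown, and the sequences run 5′ to 3′ with the matched bases in capitals:

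HSPA1A promoter, chr6:31815293-31815542 (forward strand): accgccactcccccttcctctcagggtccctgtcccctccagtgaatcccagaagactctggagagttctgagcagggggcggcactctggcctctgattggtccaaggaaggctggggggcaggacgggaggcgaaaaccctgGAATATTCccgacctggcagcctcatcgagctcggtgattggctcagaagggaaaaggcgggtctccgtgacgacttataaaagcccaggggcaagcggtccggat

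HSPA1B promoter, chr6:31827488-31827737 (forward strand): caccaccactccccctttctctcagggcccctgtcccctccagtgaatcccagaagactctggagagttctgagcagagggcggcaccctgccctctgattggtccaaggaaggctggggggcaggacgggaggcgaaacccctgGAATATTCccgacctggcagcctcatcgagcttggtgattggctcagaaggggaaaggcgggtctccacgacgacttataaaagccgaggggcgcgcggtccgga

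DNAJB1 promoter, chr19:14518398-14518647 (reverse strand): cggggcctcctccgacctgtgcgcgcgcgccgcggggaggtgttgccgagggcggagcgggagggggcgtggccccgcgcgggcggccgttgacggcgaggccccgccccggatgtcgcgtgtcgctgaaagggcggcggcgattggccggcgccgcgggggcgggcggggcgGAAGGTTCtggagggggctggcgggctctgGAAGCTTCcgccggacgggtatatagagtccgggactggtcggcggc

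HSP90AA1 promoter, chr14:102087045-102087294 (reverse strand): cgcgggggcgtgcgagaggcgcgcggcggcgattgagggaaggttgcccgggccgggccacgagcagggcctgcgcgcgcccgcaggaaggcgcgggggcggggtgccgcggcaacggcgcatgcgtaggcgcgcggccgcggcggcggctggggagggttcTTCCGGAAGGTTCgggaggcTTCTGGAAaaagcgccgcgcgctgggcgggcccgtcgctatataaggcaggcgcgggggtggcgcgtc

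HSPA8 promoter, chr11:123062137-123062386 (reverse strand): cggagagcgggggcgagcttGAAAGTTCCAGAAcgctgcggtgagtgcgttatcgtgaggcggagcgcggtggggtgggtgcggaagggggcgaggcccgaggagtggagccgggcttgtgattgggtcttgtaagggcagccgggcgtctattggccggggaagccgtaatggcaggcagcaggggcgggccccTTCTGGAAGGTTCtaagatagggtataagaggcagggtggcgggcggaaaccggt

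HSPD1 promoter, chr2:197499841-197500090 (reverse strand): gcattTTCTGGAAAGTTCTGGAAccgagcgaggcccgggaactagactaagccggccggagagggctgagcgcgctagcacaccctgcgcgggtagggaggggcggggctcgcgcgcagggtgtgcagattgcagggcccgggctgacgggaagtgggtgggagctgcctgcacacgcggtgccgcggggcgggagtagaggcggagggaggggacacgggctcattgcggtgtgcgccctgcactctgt

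HSPB1 promoter, chr7:76302423-76302672 (forward strand): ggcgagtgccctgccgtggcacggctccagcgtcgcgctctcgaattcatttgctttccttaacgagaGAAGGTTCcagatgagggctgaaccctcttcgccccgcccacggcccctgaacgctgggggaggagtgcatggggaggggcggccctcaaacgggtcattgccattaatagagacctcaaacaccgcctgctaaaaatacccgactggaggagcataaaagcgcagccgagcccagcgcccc

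**Figure D1:**
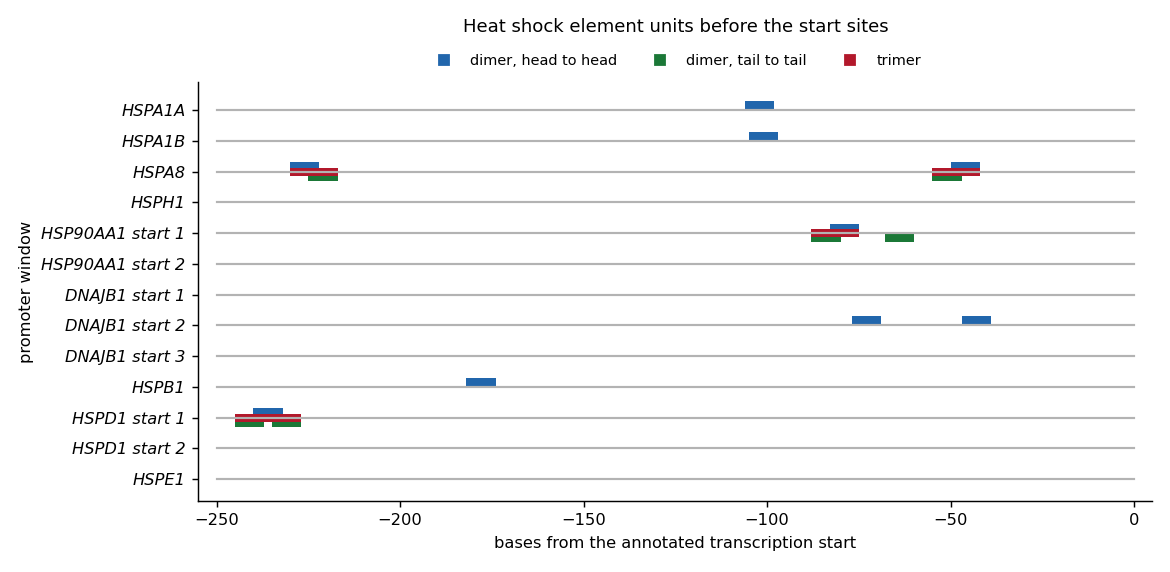
Matches to the heat shock element forms in the 250 bases before each annotated start of the genes, by distance from the start; 13 windows of 9 genes are drawn, and several lines of a gene are its alternative starts. HSPA1A and HSPA1B each hold 1 dimer about 100 bases before the start, HSPA8 holds 2 trimers, and the HSPH1 and HSPE1 windows are empty.

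HSPA1A and HSPA1B, a gene pair on chromosome 6, shared 235 of 249 promoter bases (94.4%) when shifted by 1 base, and each held 1 dimer, which began 106 bases before the start of HSPA1A and 105 before that of HSPA1B. In DNAJB1, the second of 3 annotated starts had a pair of dimers, at 77 and 47 bases. HSPA8 had 2 trimers, at 230 and 55 bases, and HSP90AA1 had 1 at 88 bases followed by a dimer at 68 bases. HSPB1 had 1 dimer, at 182 bases. In HSPD1, 2 overlapping trimers, at 245 and 240 bases, lay before 1 of its 2 starts, which was 539 bases from the start of HSPE1 on the opposite strand. The other start of HSPD1 was 105 bases from that of HSPE1, and the windows of this start and of HSPE1 shared 104 bases.

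The genes had high signals in common at the end of the course and differed in the hours before. The HSP70 pair moved the most over the 19 arrays and the mitochondrial pair the least. At 60, 66 and 72 h, 9 of the 10 genes lay above each of their own 10 arrays from 14 to 54 h, as did 9.31% of the 32111 probes tested. The exception was HSPE1.

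**Figure D2:**
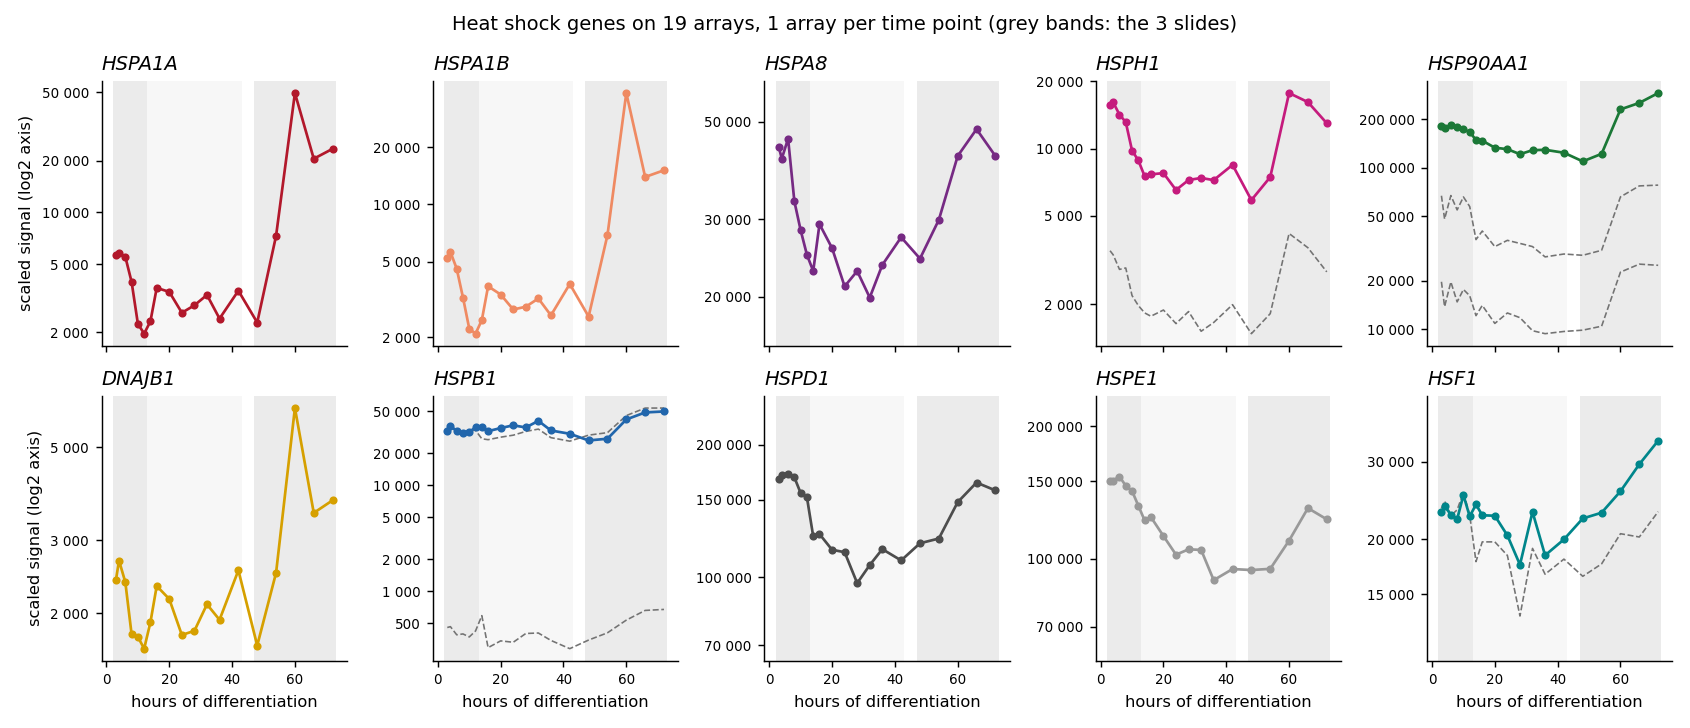
Scaled signal (log2 axis) of the 10 genes against hours of differentiation, with 1 array per point. Coloured lines are the probe shown for each gene and dashed grey lines are its other probes that were well above background on all arrays, and grey bands mark the 3 slides. HSPA1A and HSPA1B had 1964 and 2090 at 12 h and peaked at 60 h, while HSP90AA1 and HSF1 were highest at 72 h.

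HSPA1A and HSPA1B encode the stress-inducible HSP70. The first 3 arrays (3, 4 and 6 h) gave HSPA1A signals of 5646, 5799 and 5511, and the next 3 (8, 10 and 12 h) gave 3936, 2244 and 1964, which left it 2.87-fold lower at 12 h than at 3 h. From 14 to 48 h it lay between 2281 and 3630. The 54 h array gave 7300, and the last 3 arrays (60, 66 and 72 h) gave 49553, 20532 and 23455. The array at 60 h was therefore 6.79-fold above the one before it and 25.2-fold above the lowest array, at 12 h, and the last 3 arrays were the 3 highest of the course. HSPA1B went from 5203 (3 h) to 2090 (12 h), then from 2572 (48 h) to 6892 (54 h) and 38493 (60 h), and ended on 13934 and 15115, an 18.4-fold range. For both genes the signal at 54 h already exceeded that of every array before it, and at 60 to 72 h the mean was above the mean of 3 to 6 h by 5.09-fold for HSPA1A and 3.92-fold for HSPA1B.

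DNAJB1 is the J-domain partner of stress-inducible HSP70. Its signal was 2402 at the start (3 h), lowest on the 12 h array with 1647, and 1676 and 2503 on the arrays of 48 and 54 h, before 6213, 3484 and 3735 on the last 3. As in the HSP70 pair, the 60 h array was the highest and the 2 after it were lower, and the difference from 54 to 60 h was 2.48-fold. On the second slide its signal ranged from 1776 to 2538, which overlapped the range of the first slide.

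HSPH1 (HSP110), the nucleotide exchange factor of HSP70, had 15677 and 16107 on the first 2 arrays, 8850 on the 12 h array and its lowest value, 5875, on the 48 h array. The 54 h array gave 7450 and the last 3 gave 17734, 16157 and 12988. These late values thus returned to the level of the first hours without exceeding it as a group, with a ratio of 1.01 between the means of 60 to 72 h and 3 to 6 h. Its second probe likewise had its minimum on the 48 h array (1480) and its maximum on the 60 h array (4163).

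HSPA8 encodes HSC70, the HSP70 that cells make without stress. Its signal was 43877 (3 h) to 45746 (6 h) early on, 24895 on the 12 h array and lowest, with 19899, on the 32 h array. The 5 arrays of the third slide gave 24405, 29904, 41770, 48080 and 41769 in order of time. As with HSPH1, the late mean equalled the early one (ratio 1.00), so that the straight line through all time points was nearly flat while the gene moved over a 2.42-fold range.

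HSP90AA1, the inducible cytosolic HSP90, had 180838 on the first array, its lowest value of 109614 on the 48 h array and 122050 on the next, and 229905, 252179 and 290114 on the last 3. Unlike the HSP70 pair, it was still higher at 72 h than at 60 h. Its other probes were lowest on the 36 h array instead, with 28118 and 9417. The log2 differences of its 3 probes between 60 to 72 h and 48 to 54 h ranged from 1.15 to 1.30. HSPB1 (HSP27), a small heat shock protein that holds unfolded proteins without ATP, stayed between 30565 and 40444 from 3 to 42 h, had 26457 and 27449 on the arrays of 48 and 54 h, and 41704, 48568 and 49599 on the last 3. Its second bright probe had no such dip, with its lowest value of 26043 on the 42 h array and 29679 and 31334 on the arrays of 48 and 54 h, and had 45364, 53394 and 53423 on the last 3. The slope of that probe over all hours was called rising in limma (0.00815 log2 units per hour, adjusted p = 0.0127), and that of the probe shown was not (0.00445, adjusted p = 0.119).

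The mitochondrial chaperonin pair had the smallest range. HSPD1 (HSP60) was highest on the 6 h array with 171978 and lowest on the 28 h array with 96868, a 1.78-fold range, and went from 122378 to 148034 between 54 and 60 h. HSPE1 (HSP10), its lid, was highest on the 6 h array with 153686 and lowest on the 36 h array with 89319, a 1.72-fold range, and went from 94775 to 109882 between 54 and 60 h. In both, the mean at 60 to 72 h was below that at 3 to 6 h, with ratios of 0.919 and 0.797.

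HSF1, the master regulator of the heat shock response, had 23088 on the first array, its lowest signal of 17511 on the 28 h array, 22995 on the 54 h array, and 25726, 29639 and 33530 on the last 3 with the brightest probe. A second probe of similar brightness gave another picture, with 25599 at 10 h as its highest value and a mean at 60 to 72 h that was 0.14 lower on the log2 scale than at 3 to 6 h, against 0.34 higher with the first. Whether HSF1 ended above or below its first hours thus depended on the probe.

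The step from 54 to 60 h was then set against that of all probes. HSPA1A, HSPA1B, HSPH1 and DNAJB1, 4 of the 10 genes, were at least 2-fold higher at 60 h, as were 1.21% of all probes, and HSP90AA1 was 1.88-fold higher with the probe shown and 2.14-fold and 2.16-fold higher with its other probes. All 10 genes had a positive difference, with a median of 0.76 on the log2 scale, whereas the median of all probes was -0.02. When the arrays were scaled to spike-in RNA, control transcripts added in equal amount to every sample, the median of all probes was -0.38, and 2 of the genes, HSPA1A (2.40) and HSPA1B (2.12), were at least 2-fold higher. On that scale DNAJB1 had 0.95 and HSPH1 0.89, 7 of the 10 differences were positive, and HSPD1 (-0.08), HSPE1 (-0.15) and HSF1 (-0.20) were lower at 60 h. Ranked among the 13979 genes well above background on all arrays, HSPA1A was at place 11, HSPA1B at 14, DNAJB1 at 44, HSPH1 at 52 and HSP90AA1 at 132, while HSPD1, HSPE1 and HSF1 lay at 1724, 2342 and 3086. This is a difference between 2 single arrays of the same slide and has no replicate check. From 48 to 54 h, 2 of the genes, HSPA1A and HSPA1B, were also at least 2-fold higher, as were 0.719% of all probes. The pair counts as 2 genes in these steps although its signals cannot be told apart with certainty.

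**Figure D3:**
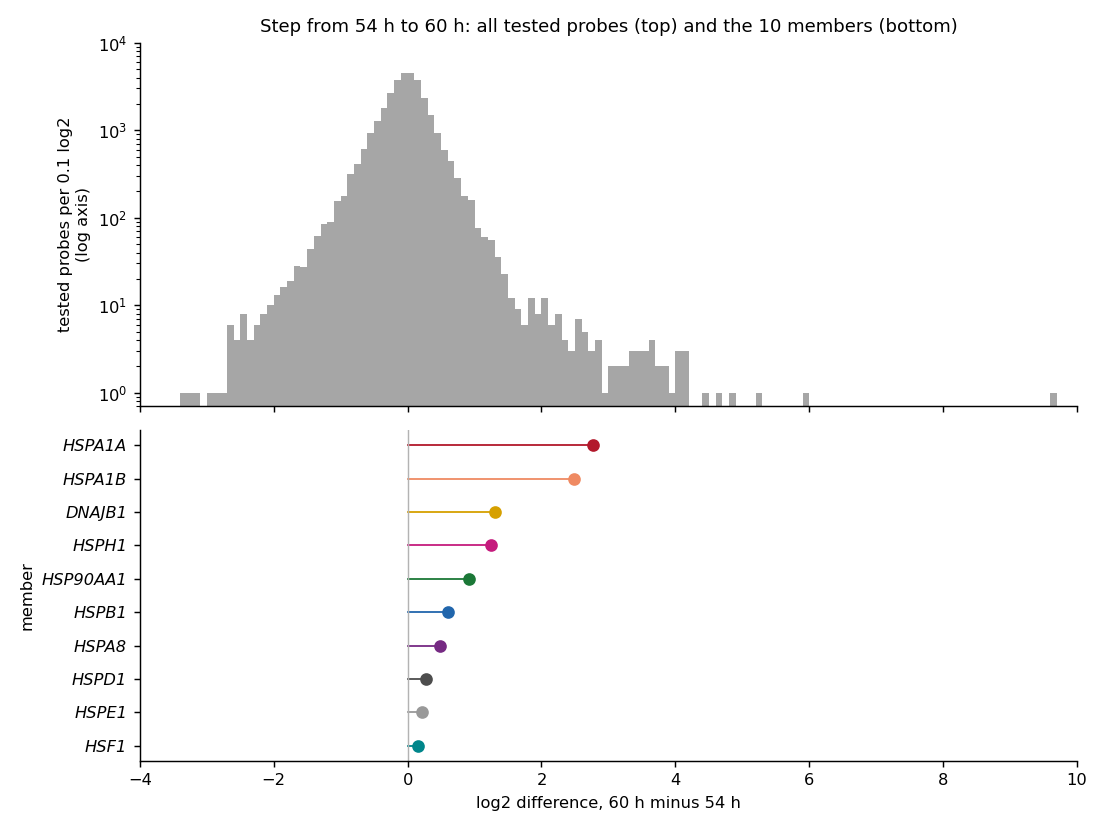
Log2 difference between the arrays at 60 h and 54 h, for all tested probes as a histogram (top, log axis) and for each of the 10 genes as a point (bottom). With scaling to the 75th percentile the genes run from 0.16 for HSF1 to 2.76 for HSPA1A, right of the median of all probes at -0.02. Values with spike-in scaling, where HSPD1, HSPE1 and HSF1 were below 0, are not drawn.

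Trends were tested with limma over all 32111 probes that were well above background on at least 5 arrays, with the scatter of the arrays around the trend as the error. On a straight line in hours, HSPA1A rose by 0.0366 ± 0.0103 (SE) log2 units per hour (adjusted p = 0.00599), HSPA1B by 0.0318 ± 0.0087 (adjusted p = 0.00489) and DNAJB1 by 0.0128 ± 0.0041 (adjusted p = 0.0126). These 3 genes were called rising in a background of 30.8% of probes, and 1 gene, HSPE1, was called falling (-0.0066 ± 0.0023, adjusted p = 0.0240) in a background of 22.5%, so the counts do not exceed those of the array as a whole. With the slide as a block none of these 4 calls was kept (adjusted p = 0.422 for HSPA1A, 0.495 for HSPA1B, 0.479 for DNAJB1 and 0.672 for HSPE1), and on log2 hours the 3 rises were not called (adjusted p = 0.146, 0.121 and 0.156). The rises also rest on the last arrays. Without 60, 66 and 72 h the slope of HSPA1A was -0.00293 and that of DNAJB1 -0.000255, neither past the test, and HSPH1 (-0.0210, adjusted p = 0.00267), HSP90AA1 (-0.0140, adjusted p = 3.89e-05), HSPD1 (-0.0125, adjusted p = 0.00404) and HSPE1 were called falling in limma, 4 of the 10 genes against 20.8% of probes.

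A cubic curve in hours, which can bend, was called for all 10 genes by limma's F-test, with adjusted p from 7.45e-07 to 0.00391, but 76.7% of all probes were called as well. When a slope was fitted within each slide, the slopes of 9 genes differed between the slides (limma F-test, adjusted p from 0.000204 to 0.0378) against 21.8% of probes, and that of DNAJB1 did not pass (adjusted p = 0.0879). Within the first slide HSPA8 fell (-0.0965 ± 0.0240 log2 units per hour, adjusted p = 0.0334; 2.25% of probes), and within the second HSPE1 fell (-0.0153 ± 0.0035, adjusted p = 0.00936; 6.55% of probes). Within the third slide, 48 to 72 h, 9 genes rose, against 9.28% of probes. HSP90AA1 rose by 0.0643 ± 0.0067 log2 units per hour and HSPA1A by 0.137 ± 0.033 (adjusted p = 0.00901), and DNAJB1 had 0.0465 ± 0.0167 (adjusted p = 0.0626).

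That fit shares 1 error over all slides. When the 6 arrays of the first slide were fitted alone, a choice made after seeing the data, 4 genes fell with limma, namely HSPA1A (-0.192 ± 0.027, adjusted p = 0.0302), HSPA1B (-0.174 ± 0.020, adjusted p = 0.0221), HSPH1 (-0.0999 ± 0.0137, adjusted p = 0.0284) and HSPA8 (adjusted p = 0.0460), against 2.4% of probes. DNAJB1 had -0.0780 (adjusted p = 0.0552). In the third slide alone, limma called 0 of the 10 genes and 0% of all probes rising, and 8 of the 10 genes had a positive slope with an unadjusted p under 0.05, as did 13.5% of probes.

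The late rise was also measured as the mean of 60, 66 and 72 h minus that of 48 and 54 h, all on the third slide, with 7 windows of neighbouring arrays in 1 limma fit. The windows were chosen after the values had been seen and hold different time points, which are not replicates. All 10 genes were higher in the late window, against 6.42% of probes. HSPA1A rose by 2.82 ± 0.45 (SE) on the log2 scale (7.06-fold, adjusted p = 0.0020), HSPA1B by 2.25 ± 0.42 (4.77-fold, adjusted p = 0.00448), HSPH1 by 1.23 ± 0.16, HSP90AA1 by 1.15 ± 0.09 and DNAJB1 by 1.08 ± 0.22. HSPB1 (0.79), HSPA8 (0.70), HSF1 (0.38), HSPD1 (0.37) and HSPE1 (0.35) rose by less, and HSF1 was near the threshold (adjusted p = 0.0470). Of the 17 probes of these genes, 15 passed; the other HSF1 probes did not.

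The late rise depended on the arrays at 48 and 54 h and on the scaling. Without 48 h, 3 genes (HSPH1, HSP90AA1 and HSPB1) passed the test, and HSPA1A had 1.98 (adjusted p = 0.0544) and HSPA1B 1.54 (adjusted p = 0.105). Without 54 h, HSPA1A had 3.66 (adjusted p = 0.00197) and HSPA1B 2.97 (adjusted p = 0.00497), and HSPD1, HSPE1 and HSF1 did not pass in limma. With spike-in scaling the median of all probes was itself 0.78 lower at 60 to 72 h than at 48 and 54 h. On that scale 2 genes passed, HSPA1A and HSPA1B, whose probes may read the same transcripts. HSPA8, HSPB1, HSPD1, HSPE1 and HSF1 turned to differences between -0.02 and -0.45, none past the test. The rises given above are thus relative to the other genes of the same array.

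The early fall was measured in the same fit as the mean of 8, 10 and 12 h minus that of 3, 4 and 6 h, on the first slide. HSPA8 fell by 0.61 ± 0.12 on the log2 scale (1.53-fold, adjusted p = 0.0245), against 1.16% of probes. HSPA1A (-1.13 ± 0.40, adjusted p = 0.157), HSPA1B (-1.05 ± 0.38, adjusted p = 0.160), HSPH1 (-0.55 ± 0.15, adjusted p = 0.0665) and DNAJB1 (-0.52 ± 0.20, adjusted p = 0.180) did not pass in limma. HSP90AA1, HSPB1 and HSF1 had differences of -0.07, -0.04 and 0.01.

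**Figure D4:**
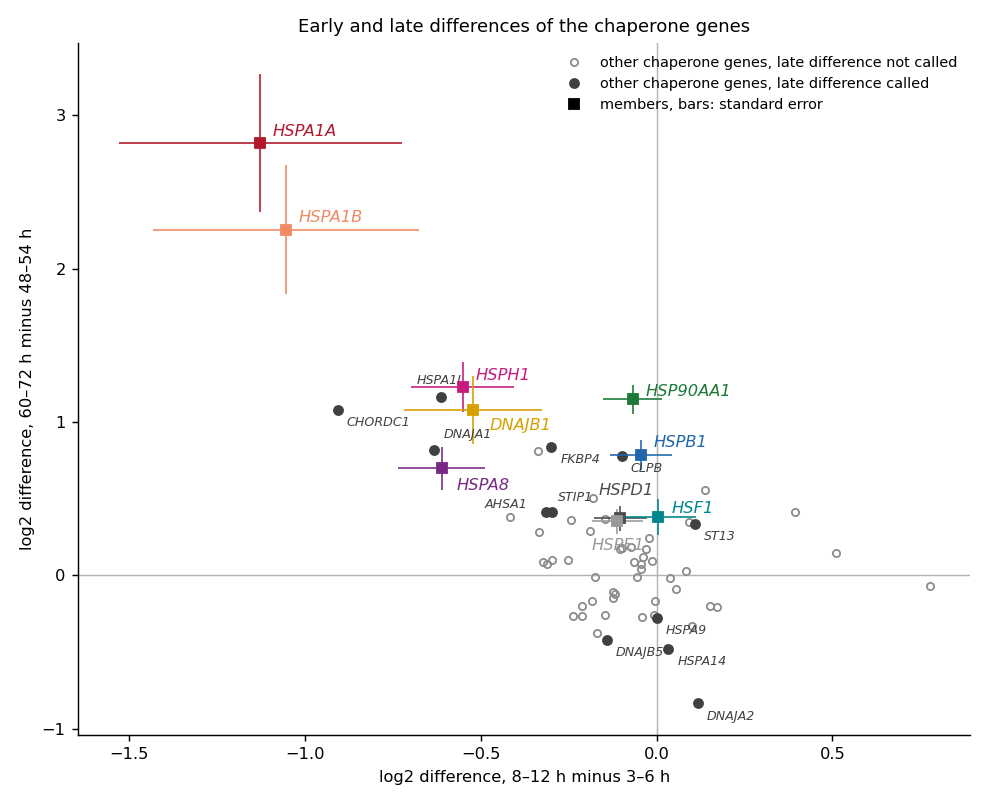
Log2 difference of 8 to 12 h minus 3 to 6 h (horizontal axis) against that of 60 to 72 h minus 48 and 54 h (vertical axis), with squares for the 10 genes (bars, standard error of the limma fit) and circles for 58 other chaperone genes (filled where the late difference was called). HSPA1A and HSPA1B lie in the upper left corner, at early differences of -1.13 and -1.05 and late differences of 2.82 and 2.25.

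Likeness between the genes was measured over the 19 arrays, which share slides and follow each other in time, so neighbouring arrays are not independent. All 45 pairs of the 10 genes had a Pearson's r above 0, from 0.05 (DNAJB1 with HSPE1) to 0.99, with a median of 0.67. The 4 pairs tested were near-identical copies, neighbouring genes with a shared promoter region, abundant cytosolic chaperones and targets of HSF1, in this order. The copies, HSPA1A and HSPA1B, had r = 0.994 and Spearman's rho = 0.986 over n = 19 arrays (permutation test, adjusted p = 4e-05 for both). Their probes may read the same transcripts, so these values cannot tell whether the genes moved together. HSPD1 and HSPE1 had r = 0.840 and rho = 0.849 (permutation test, adjusted p = 4e-05 and 8e-05), HSPA8 and HSP90AA1 r = 0.801 and rho = 0.770 (adjusted p = 4e-05 and 0.000333 by permutation), and HSPH1 and DNAJB1 r = 0.667 and rho = 0.600 (adjusted p = 0.0008 and 0.00796 by permutation). The raw p of the first pair, 1e-05, is the smallest that 100000 resamples can give.

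Without the 2 arrays farthest from the median of the first gene, r was 0.990 for the HSP70 pair, 0.796 for the chaperonin pair, 0.767 for HSPA8 and HSP90AA1 and 0.503 for HSPH1 and DNAJB1. After removal of the slide means, r was 0.989, 0.769, 0.672 and 0.904 in the same order. Within the first slide (6 arrays), r was 0.983 for the HSP70 pair and 0.923 for the chaperonin pair (exact permutation p = 0.00278 and 0.0139), 0.915 for HSPA8 and HSP90AA1 and 0.893 for HSPH1 and DNAJB1 (exact permutation p = 0.0111 and 0.00278). Within the second slide (8 arrays), r stayed at 0.967 for the HSP70 pair and 0.872 for HSPH1 and DNAJB1 (exact permutation p = 9.92e-05 and 0.00233). It was 0.483 for HSPD1 and HSPE1 and 0.290 for HSPA8 and HSP90AA1 (exact permutation p = 0.226 and 0.473). These relations did not pass the test on 8 arrays, which does not show that they were absent. Correlations were computed over 6 or more arrays and hence not within the third slide, which held 5.

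Among 13979 genes, the most similar to HSPA1A were HSPA1B and DNAJB1 (r = 0.957), and those most similar to DNAJB1 were HSPA1B (r = 0.974) and HSPA1A. For HSPA1B they were HSPA1A (r = 0.994) and DNAJB1, and the remaining genes had no member of the group as their most similar gene. The highest r was 0.947 for HSPA8 with BAMBI, 0.937 for HSPH1 with SPIN2B, 0.960 for HSP90AA1 with BGLAP, 0.898 for HSPB1 with SCAMP3, 0.965 for HSPD1 with RPS19BP1, 0.984 for HSPE1 with PQBP1 and 0.945 for HSF1 with RHBDF2. The next in order were ZNF320, ZBTB46, PRKAR1A, SMIM29, NME3, LAMA4 and TCL1B, respectively.

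Other chaperone genes were described with lists of 61 genes in 8 groups, of which 60 had a probe and 58 were tested. Of these, 8 were called rising (30.8% of all probes) and 21 falling (22.5%) on the straight line in limma, with a median slope of -0.002 log2 units per hour against 0.002 for all probes. In the late window 8 of the 58 were higher (HSPA1L, STIP1, AHSA1, FKBP4, CHORDC1, DNAJA1, ST13 and CLPB) and 4 lower (HSPA14, DNAJA2, DNAJB5 and HSPA9), with a median of 0.09, against 0.02 for all probes and 0.93 for the 10 heat shock genes. Of all probes, 6.42% were higher and 8.08% lower in this contrast. The count of other chaperone genes called higher was 0 with spike-in scaling and 1 without 48 h.

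The HSP90 cochaperones had the highest share, with 4 of the 7 genes of the HSP90 list higher in the late window. CHORDC1, a cochaperone with zinc-binding CHORD domains, rose by 1.08 ± 0.21 on the log2 scale (limma, adjusted p = 0.0055), FKBP4, a cochaperone of steroid receptors, by 0.84 ± 0.10 (adjusted p = 0.000586), STIP1 (HOP), which links HSP70 and HSP90, by 0.41 and AHSA1, which activates the ATPase of HSP90, by 0.41. CHORDC1 was also 1 of the 2 genes lower at 8 to 12 h than at 3 to 6 h (-0.91, adjusted p = 0.0273), with DNAJA1 (-0.63, adjusted p = 0.0440). HSP90AB1, the constitutive HSP90, had 43663 at 48 and 54 h and 46352 at 60 to 72 h, a difference of 0.09 ± 0.09 (adjusted p = 0.55). HSP90AA1 had 1.15 in the same contrast, and the difference between the genes was not tested.

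Among the HSP70 relatives, HSPA1L, which lies beside the HSP70 pair on chromosome 6, rose in the late window by 1.17 ± 0.24 (adjusted p = 0.00752), from a mean signal of 86.8 to 195, and HSPA14 fell by 0.48 (adjusted p = 0.0273). HSPA6, a strictly inducible HSP70, was dim and rose along the straight line by 0.0254 log2 units per hour (adjusted p = 1.62e-06), while its late difference was 0.28 ± 0.26. In the mitochondrion, HSPA9 (mortalin), the HSP70 of the matrix, fell by 0.28 ± 0.08 in the late window (adjusted p = 0.0383), in the direction opposite to HSPD1 and HSPE1, and TRAP1, the mitochondrial HSP90, had -0.20 (adjusted p = 0.144) and GRPEL1, the nucleotide exchange factor of HSPA9, 0.09 (adjusted p = 0.647). Of the 11 mitochondrial genes, CLPB, a disaggregase of the intermembrane space, was the only one higher in the late window (0.78 ± 0.16, adjusted p = 0.00606). None of the 8 genes of the cytosolic chaperonin TRiC, which folds actin and tubulin, passed in the late window in limma, with differences from -0.17 (CCT6A) to 0.36 (CCT5).

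Of the heat shock factors, HSF4 was dim, with 54.7 on the 3 h array, 124 on the 66 h array and its highest signal, 218, on the 72 h array. It rose along the straight line in limma by 0.0172 ± 0.0027 log2 units per hour (adjusted p = 3.14e-05). HSF2, which can form trimers with HSF1, and HSBP1, which binds HSF1 trimers, had slopes of 0.005 (adjusted p = 0.141) and 0.003 (adjusted p = 0.0789). Their late differences were -0.17 and 0.17. The steepest rises among the other chaperone genes measured on all arrays were those of DNAJB4, HSPA4L, HSF4, DNAJB2 and CLPX, and the steepest falls those of HSPBP1, BAG1, DNAJB5, HSPA14 and DNAJC7. DNAJB4 rose from a mean of 223 at 3 to 6 h to 645 at 60 to 72 h, and HSPBP1 and BAG1, which release nucleotide from HSP70, fell from 13986 to 6917 and from 13258 to 5668.

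**Figure D5:**
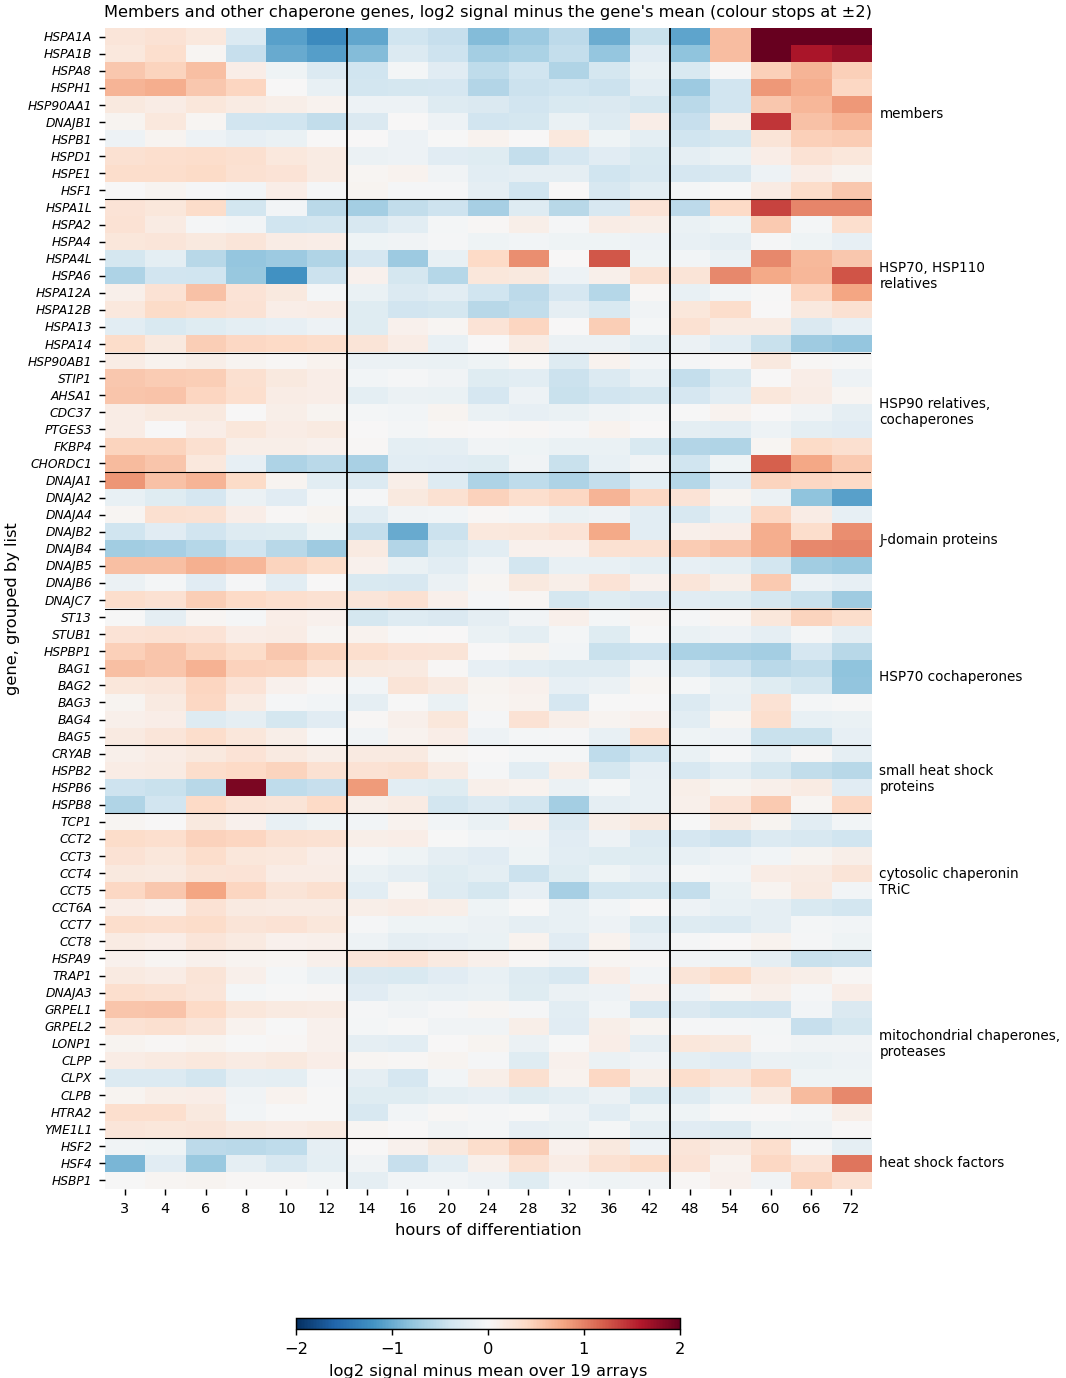
Log2 signal minus the gene's mean over the 19 arrays (colour, from blue for lower to red for higher, stopping at ±2) for the 10 heat shock genes and 58 other chaperone genes in their groups, by hours of differentiation; vertical lines separate the slides. HSPA1A and HSPA1B are deep red at 60, 66 and 72 h, and the TRiC genes, whose late differences lie between -0.17 and 0.36, are paler there.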

How the data were processed

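The authors deposited the output of Agilent Feature Extraction 10.10.1.1 for each array (Cy3-labelled total RNA, array design on hg19), in which a spot's processed intensity is background-subtracted and detrended within the array without scaling between arrays, and a table of the same intensities times 1 factor per array (0.905 to 1.38), blank where not well above background. Control and outlier spots (0.632%) were left out, spots of a probe averaged, and log2 intensity minus the array's 75th percentile used. RefSeq accessions named 28174 probes of 20503 genes. A gene was represented by its brightest probe.

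Models were fitted with limma 3.58.1 (R 4.3.3; lmFit, eBayes, Benjamini-Hochberg over all 32111 probes, adjusted p under 0.05) and checked on simulated data. Python 3.11.15 with numpy 2.4.6, pandas 2.3.3, scipy 1.17.1 and matplotlib 3.10.9 served for correlations (two-sided, 100000 resamples, adjusted over 4 pairs), motifs and plots. The array number limits the precision. Genes named beyond the 10 were heat shock factors, HSP90AB1, mitochondrial partners, genes called in a window, the 5 steepest each way and the 2 most similar to each gene. The members and lists were chosen with earlier results of these data known. Alternatives were the array median, spike-in RNA (7 of 10 levels), normexp (offset 50) with quantile normalization, the deposited table, other filters and probe rules, log2 hours, the slide as a block, arrays left out, and, after seeing the data, windows and single slides.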

Additional observations from a re-analysis of the deposited data

Results flagged for a closer look

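The slope on hours differed between the 3 slides, that is, between 3 to 12 h, 14 to 42 h and 48 to 72 h, for 9 of the 10 heat shock genes (limma F-test, adjusted over all probes). The adjusted p was 0.0165 for HSPA1A, 0.0378 for HSPA1B, 0.0049 for HSPA8, 0.00944 for HSPH1, 0.000204 for HSP90AA1, 0.00541 for HSPB1, 0.0164 for HSPD1, 0.00199 for HSPE1 and 0.0118 for HSF1. Slide and time period cannot be told apart in this design.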

How the results depend on the processing

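The count of genes called rising over 3 to 72 h (3) was 0 on log2 hours, 0 with the slide as a block and 0 without 60, 66 and 72 h, and 5 with normexp and quantile normalization; each array left out gave 3 to 4. The count falling (1) was 2 with spike-in scaling, 0 with the slide as a block, 0 without 3, 4 and 6 h and 4 without 60, 66 and 72 h (arrays left out: 0 to 1; 0 without 3 h). The cubic curve kept its count within 1.5 times everywhere (arrays left out: 10 to 10). Slopes called within slides (11) were 7 with the array median and 4 with spike-in scaling (5 to 16; 5 without 48 h), and genes whose slope differs between slides (9) were 1 with spike-in scaling (5 to 10; 5 without 48 h). The late window (10 higher) gave 2 with spike-in scaling (3 to 10; 3 without 48 h), and the early window (1 lower) gave 2 with probes well above background on all 19 arrays, 0 without a filter and 0 with spike-in scaling (0 to 2; 2 without 8 h or 72 h, 0 without 3, 4, 10 or 12 h). Of the other chaperone genes, the 21 falling were 32 with the array median, 33 with spike-in scaling and 6 with the slide as a block (20 to 22), the 8 rising were 5, 2 and 4 (8 to 10), and the 8 higher in the late window were 5 with the array median and 0 with spike-in scaling (1 to 11; 1 without 48 h). Signs turned in 38 values. Without 60, 66 and 72 h these were the slopes of HSPA1A (-0.00293), HSPA8 (-0.0120), HSPH1 (-0.0210), HSP90AA1 (-0.0140), DNAJB1 (-0.000255), HSPB1 (-0.00429) and HSF1 (-0.00351). With the array median they were the slopes of HSPA8 (-0.0025), HSPH1 (-0.00493), HSP90AA1 (-0.000928), HSPB1 (-0.000732) and HSF1 (-0.00121). With spike-in scaling they were the slopes of HSPA8 (-0.00575), HSPH1 (-0.00817), HSP90AA1 (-0.00417), HSPB1 (-0.00398) and HSF1 (-0.00446) and the late differences of HSPA8 (-0.11), HSPB1 (-0.017), HSPD1 (-0.43), HSPE1 (-0.45) and HSF1 (-0.42). On log2 hours, per doubling of time, the slopes of HSPA8 (-0.0589), HSPH1 (-0.115) and HSP90AA1 (-0.00816) turned, with the deposited table that of HSPH1 (-0.000695), and that of HSPD1 with the slide as a block (0.00139) and without 3, 4 and 6 h (0.0014). With each array left out, the slope of HSPH1 ranged from -0.00352 to 0.00263, that of HSPA8 from -0.000351 to 0.00478 (below 0 without 66 h) and that of HSP90AA1 from -0.000264 to 0.00581 (below 0 without 72 h). Of the turned values, only the slopes of HSPH1 and HSP90AA1 without 60, 66 and 72 h passed the test in limma. Of the other values of single genes and pairs under an alternative, 485 kept sign and side of the threshold, 45 lost the threshold and 8 gained it. Spike-in scaling lowered the median of all probes, and fewer arrays leave fewer degrees of freedom; for the other settings the cause was not tested. No paired analysis was possible because no time point was measured on more than 1 array.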

Other observations

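The HSP70 pair was not alone in its step from 54 to 60 h. Of the 10 genes ranked above HSPA1A (2.76 on the log2 scale), 6 were of the metallothionein family, whose proteins bind zinc and copper. Among them were MT1G (3.71), MT1M (3.64), MT2A (3.61) and MT1E (3.37). The others were NF1, in first place with 9.65, APOL4 (3.59), SLC30A1 (3.10), which exports zinc from the cell, and ANKRD37 (3.08). Metallothionein genes are close copies, and probe sequences were not used here to tell them apart. These genes were named after their values were seen, and the step is a difference between 2 single arrays with no test.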
